A study of Mus musculus and Rattus norvegicus with 21 samples.

Results

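The regions described here are places outside promoters where peaks of NKX2.1 and PAX8, a pair of transcription factors (TFs) of the thyroid, coincided in the mouse gland. A region was a 300 bp NKX2.1 peak that overlapped a PAX8 peak by at least 1 bp and overlapped no region of H3K4me3, the histone mark of active promoters. In all, 21289 of 46636 NKX2.1 peaks (45.6%) met this rule, and the PAX8 list held 51586 peaks. Both deposited lists are longer than the peak sets described in the study, and whether a score filter separates them is not known, so each count and share below applies to the deposited lists. The peaks came from chromatin immunoprecipitation followed by sequencing (ChIP-seq) of thyroid glands, with 1 library for NKX2.1 and 1 for PAX8, both labelled as wild-type (WT) mice, 1 month old, on a low iodine diet (LID). The study's methods describe the animals of these libraries instead as Glis3-EGFP mice, which carry a tagged GLIS3, older and longer on the LID, and this difference was not resolved. H3K4me3 regions were the union of 4 libraries, from Glis3 knockout (Glis3KO, an mCherry allele) and WT thyroids on the LID or a normal diet (ND), labelled 1 month old, and H3K27me3, the mark of Polycomb repression, had been mapped in the same 4 groups. How many animals went into each library was not stated in the labels or methods. Whole glands also hold C cells, vessels, fibroblasts and blood cells. Since each factor or mark had 1 library in each group, no difference between samples could be tested, and the 95% intervals below cover the counting of peaks only.

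NKX2.1, a homeodomain protein, and PAX8, a paired domain protein, are both needed to form the thyroid, and in the adult gland they maintain genes of thyroid hormone (TH) synthesis such as those for thyroglobulin and the dual oxidases. Many sites of such TFs lie at enhancers, which are stretches of regulatory DNA within introns or between genes that act on a promoter from a distance. A low iodine diet raises thyroid stimulating hormone (TSH), which acts on follicular cells through its receptor and cAMP.

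The sequences below, from the plus strand of the RefSeq assembly GRCm38 (mm10), show what these regions look like at genes of thyroid function and in a dense run of regions. They were printed where a region of a TH synthesis, TSH-induced or thyroid TF gene held a string of each factor, with 1 more from a run of regions. Capitals mark the strings searched for, which were CAAGTG and CTCAAG for NKX2.1 and GTCATGC and GTCACGC for PAX8, on either strand, and bases are counted from 1 at the left end. The Slc26a4 region, chr12:31562918-31563217, lies 3084 bp upstream of the gene for pendrin, the apical iodide exchanger, with an NKX string at base 177 and a PAX string at base 213.
Slc26a4 upstream: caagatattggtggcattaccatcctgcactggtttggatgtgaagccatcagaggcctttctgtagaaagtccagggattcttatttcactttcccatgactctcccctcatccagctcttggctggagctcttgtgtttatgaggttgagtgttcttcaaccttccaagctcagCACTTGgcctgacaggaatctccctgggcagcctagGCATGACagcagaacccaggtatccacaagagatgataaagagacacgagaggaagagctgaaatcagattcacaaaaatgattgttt
The Glis3 region, chr19:28275736-28276035, lies in intron 9 of the gene for GLIS3, a zinc finger TF, with a PAX string at base 18 and an NKX string at base 155.
Glis3 intron 9: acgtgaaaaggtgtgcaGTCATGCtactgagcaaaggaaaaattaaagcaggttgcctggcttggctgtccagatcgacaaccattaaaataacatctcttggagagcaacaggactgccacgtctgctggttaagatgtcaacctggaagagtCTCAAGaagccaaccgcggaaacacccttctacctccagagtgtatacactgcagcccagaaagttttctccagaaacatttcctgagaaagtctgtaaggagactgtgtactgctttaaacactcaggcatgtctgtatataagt
The Pde4d region, chr13:109896136-109896435, lies in intron 7 of a cAMP phosphodiesterase gene, with a PAX string at base 54 and an NKX string at base 164.
Pde4d intron 7: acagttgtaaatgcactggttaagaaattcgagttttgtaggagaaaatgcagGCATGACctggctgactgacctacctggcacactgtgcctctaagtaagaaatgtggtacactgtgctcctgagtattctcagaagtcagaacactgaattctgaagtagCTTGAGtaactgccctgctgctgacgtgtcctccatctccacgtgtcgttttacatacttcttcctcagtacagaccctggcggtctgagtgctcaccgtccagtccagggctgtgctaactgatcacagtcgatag
The Zbtb16 region, chr9:48775629-48775928, lies in intron 2 of a zinc finger TF gene at the edge of a run of 9 regions, with a PAX string at base 86 and an NKX string at base 168.
Zbtb16 intron 2: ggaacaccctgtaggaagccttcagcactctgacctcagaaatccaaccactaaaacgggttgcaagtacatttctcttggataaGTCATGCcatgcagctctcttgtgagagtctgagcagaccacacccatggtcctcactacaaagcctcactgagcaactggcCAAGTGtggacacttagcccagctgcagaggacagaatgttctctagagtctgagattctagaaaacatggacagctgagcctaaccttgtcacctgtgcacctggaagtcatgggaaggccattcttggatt

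The peak pairs that the rule selected lay almost on top of each other. The overlap had a median of 265 bp (quartiles 234 and 284 bp), the centres of the NKX2.1 and PAX8 peaks were a median of 35 bp apart (quartiles 16 and 66 bp), and 19923 regions (93.6%) overlapped by at least 150 bp. These values describe the choice of regions. At the edge of the rule, regions nearest to Dnah14, Golph3, Plaat1, Nebl and Slc9a8 overlapped a PAX8 peak by 1 bp, while NKX2.1 peaks nearest to Rapgef6, Eppk1, Anks1 and Galnt2 abutted a PAX8 peak with a gap of 0 bp and were left out, as was an NKX2.1 peak at Zcchc2 with a gap of 1 bp. There were 74 regions with 1 to 10 bp of overlap and 60 excluded NKX2.1 peaks with a PAX8 peak at most 9 bp away.

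The label "outside promoters" was checked against annotated start sites, which the rule had not used. Only 391 regions (1.84%) had a midpoint within 1 kb of a start site of a curated RefSeq transcript, against 56.4% of the 2395 shared peaks that overlapped H3K4me3. Windows of 300 bp placed every 25 kb along the genome outside H3K4me3 gave 1.16%. With all GENCODE M21 transcripts, a fuller set with many partial models, the share was 7.38% (7.04 to 7.74%), against 5.17% of the windows (5.04 to 5.31%). H3K4me3 was usually far away, with a median gap of 28590 bp (quartiles 9771 and 74483 bp), and 1001 regions (4.7%) had a gap of at most 1 kb. Some regions lay close to the edge of the rule, and 213 had an H3K4me3 region less than 100 bp away.

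Most of the shared regions were inside genes. By midpoint 58.6% lay in a gene body, 37.2% were intergenic, 3.15% were upstream (1 to 5 kb before a start site) and 1.07% were TSS proximal (the last 1 kb before a transcription start site, TSS). The genome windows gave 39.8% in gene bodies and 56.9% in intergenic sequence, so the regions exceeded them in gene bodies by 18.8 percentage points (18.1 to 19.6). Introns held 55% of the midpoints, 15.6% of all regions being in intron 1, and exons held 4%. Among peaks of a single TF outside promoters, NKX2.1 peaks without PAX8 had 57.8% and PAX8 peaks without NKX2.1 had 58.1% in gene bodies. The differences of 0.784 points (-0.179 to 1.75) and 0.514 points (-0.417 to 1.44) had intervals that included 0. Exons held 3.16% of NKX2.1 peaks without PAX8 and 5.07% of PAX8 peaks without NKX2.1, so the shared regions differed from them by 0.84 points (0.478 to 1.2) and by -1.08 points (-1.47 to -0.683). Shared peaks at promoters had 48.2% in gene bodies and 12.3% in intergenic sequence.

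The regions lay a median of 37 kb from the nearest protein-coding start site (95% interval of the median 36.1 to 37.8 kb). Only 8.85% were within 5 kb, while 23.7% were more than 100 kb away. NKX2.1 peaks without PAX8 were somewhat nearer, with a median of 32.5 kb, and PAX8 peaks without NKX2.1 had a median of 34.9 kb. Within 5 kb the share of the shared regions minus that of NKX2.1 peaks without PAX8 was -1.95 points (-2.53 to -1.37), and minus that of PAX8 peaks without NKX2.1 it was -1.4 points (-1.96 to -0.847). Beyond 100 kb they exceeded NKX2.1 peaks without PAX8 by 2.79 points (1.98 to 3.6), and PAX8 peaks without NKX2.1 by 0.799 points, with an interval that reached 0.000993. The genome windows had 42.5% beyond 100 kb. The region lay downstream of its nearest start site, in the direction of transcription, in 60.9% of cases, against 54.7% of the windows.

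**Figure D1:**
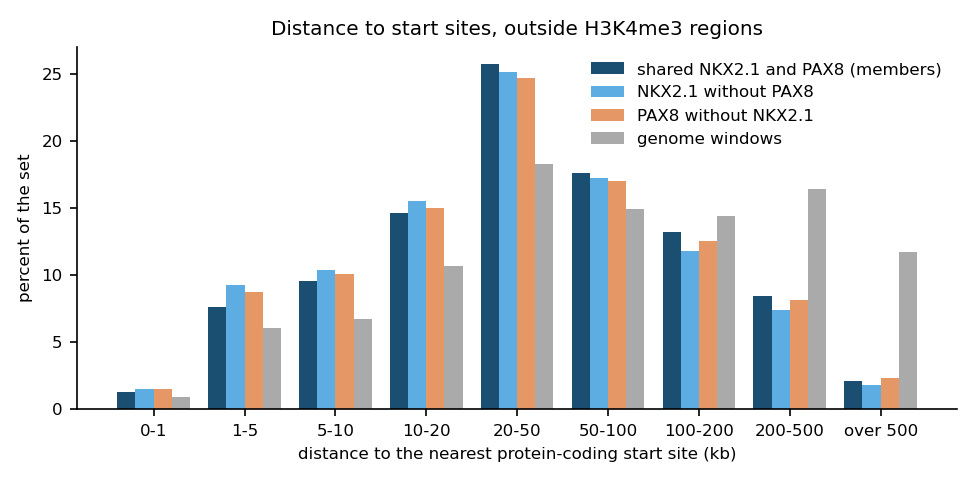
Percent of peaks (y axis) by distance of the midpoint to the nearest protein-coding start site in kb (x axis) for shared NKX2.1 and PAX8 peaks, peaks of NKX2.1 without PAX8, peaks of PAX8 without NKX2.1 and genome windows, all outside H3K4me3. The 20 to 50 kb class was the largest for the shared peaks (25.7%), and beyond 500 kb lay 2.09% of them against 11.7% of the windows.

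The regions were spread over a large part of the genes. Assigned to the nearest protein-coding start site, they reached 7744 of 21000 genes (36.9%), with a median of 2 among these and of 0 over all genes. At least 5 regions were assigned to 1221 genes (5.81%), at least 10 to 253 and at least 20 to 19. The 100 genes with the most regions held 7.89% of them. NKX2.1 peaks without PAX8 reached 8210 genes, of which 930 had at least 5, and PAX8 peaks without NKX2.1 reached 8754, of which 1181 had at least 5. How many regions a gene received went with the stretch of DNA nearest to its start site. Among genes with 10 to 30 kb of such DNA 15.3% had a region, among those with 100 to 300 kb 61.7%, and the density was 9.79 and 11.8 regions per Mb. In stretches over 300 kb 67.7% of genes had a region at a density of 4.91 per Mb.

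Among the 15 genes with the most regions, Zmiz1, which encodes a coactivator of the PIAS family, came first with 33 regions, at 59.3 per Mb of its stretch compared with 8.02 per Mb over all genes. Adgrl2, an adhesion G-protein-coupled receptor gene, had 32, and Sox9, a TF gene of many epithelia and of cartilage, had 27, none of them inside its short gene body and the farthest 828 kb away. Rbms3, which encodes an RNA-binding protein, also had 27, of which 25 lay in the gene. Ubash3b, a phosphatase gene, had 25 at 43.4 per Mb. Magi1, a scaffold gene of epithelial junctions, had 24, and Zfp521, a zinc finger TF gene, had 23. Nedd1, required at the centrosome, Mecom, a TF gene, and Rora, an orphan nuclear receptor gene, had 22 each. Fut8, the core fucosyltransferase gene, Pik3r1, the regulatory subunit gene of PI3 kinase, Btbd3, the proto-oncogene Myc and Klhl29 had 21 each. Of the Myc regions 0 were inside the gene. All 15 genes were also nearest to peaks of a single TF outside promoters. Magi1 had 31 NKX2.1 peaks without PAX8 and Sox9 had 29 PAX8 peaks without NKX2.1, more than their shared regions, while Zmiz1 had 12 of each. These 15 genes had long stretches, with a median of 1007 kb against 49 kb over all genes, and they were selected by their counts.

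**Figure D2:**
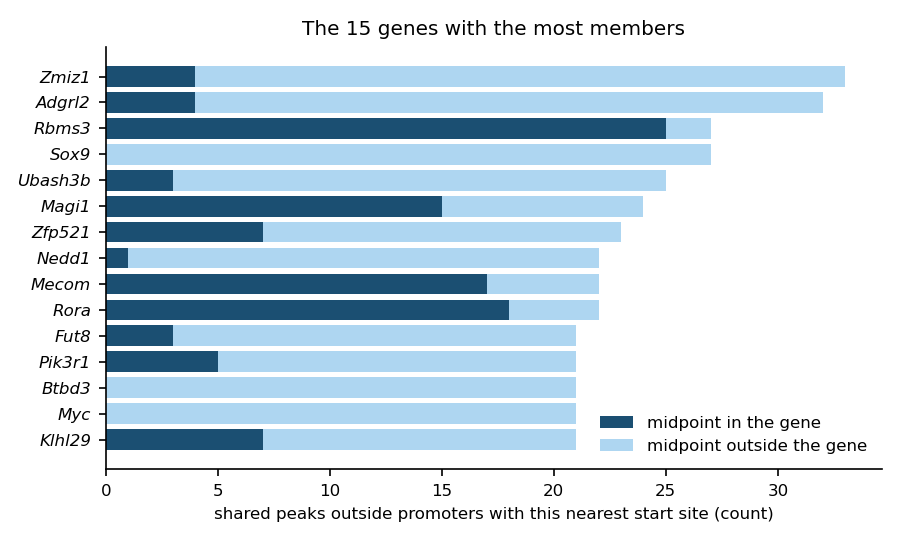
Number of shared regions (x axis) assigned by nearest start site to each of the 15 genes with the most (y axis), split into those with the midpoint in the gene and outside it. Zmiz1 had 33 regions with 4 in the gene, whereas 25 of the 27 Rbms3 regions were intragenic and all regions of Sox9, Btbd3 and Myc lay outside the gene.

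The genes of the thyroid TFs themselves each had shared regions, 5 of 5 compared with 36.9% of all genes, with a median of 4 per gene. Glis3 stood first, with 19 regions along its introns 1 to 9, of which 15 had the Glis3 start site as the nearest and 4 that of Rfx3. They lay between 11402 bp and 404191 bp from the start site. Hhex, a homeobox gene of the early thyroid bud, had 5 regions 22922 to 53831 bp downstream of its start site, beyond the end of the short gene. Of these, 2 were separated by 571 bp from midpoint to midpoint, and both lay in the last 1 kb before a start site of another annotated gene. A further one lay in intron 1 of another annotated gene. Pax8 had 4 regions upstream, 12083, 24918, 58532 and 84863 bp from the start site, and 1 more in its intron 10 that was nearer to Psd4. All 4 Nkx2-1 regions were downstream, at 21830, 49563, 67701 and 90670 bp. Foxe1, the gene of a forkhead TF of the thyroid, had 2 regions 66390 and 73624 bp upstream and 1 downstream that was nearer to Trmo. The stretches nearest to these 5 start sites had a median of 134 kb.

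Genes of TH synthesis, a group that the study named, had a shared region as the nearest gene in 7 of 11 cases, against 36.9% of all genes. Iyd, which encodes the deiodinase that salvages iodide from iodotyrosines, had 8, spread from 5027 bp upstream to 90555 bp downstream. Slc26a4 had 7, with 2 just upstream of the gene at 998 and 3084 bp, 2 farther upstream at 27378 and 34401 bp, and 3 in introns 4, 10 and 13. Tg, the thyroglobulin gene, had 2 upstream, at 2546 and 29103 bp, and 1 in intron 41 that was nearer to Sla. Tshr, the TSH receptor gene, had 1 as the nearest gene, in intron 1, and another in intron 2. Duox1, which encodes an oxidase that makes hydrogen peroxide, had 1 in intron 2 and another in intron 27 that was nearer to Shf. For Duoxa1, Duox2 and Duoxa2 no region had that start site as the nearest, and all 3 lay within 50 kb of the same 2 regions in Duox1. Counting any region within 50 kb of a start site or in the gene body, all 11 genes had one, against 54.2% of all genes. The stretches of these 11 genes had a median of 67.5 kb, against 49 kb over all genes.

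The TSH-induced genes of the study had a shared region as the nearest gene in 4 of 8 cases, against 36.9% of all genes. Counting any region within 50 kb of a start site or in the gene body, 6 of 8 had one, against 54.2% of all genes. Their stretches had a median of 134 kb, against 49 kb over all genes. Dio1, the type 1 deiodinase gene, had 3, in intron 1, in exon 4 and beyond its end. Kcnq1, a potassium channel gene, had 3 in introns 1, 2 and 6 and a further one in intron 15. Adm2, which encodes the peptide hormone adrenomedullin 2, had 1, 3897 bp downstream of its start site. Pde4d had 15 regions in its introns 3 and 7, from 550883 bp to 1242109 bp from the start site, but 12 of them were assigned to Rab3c. The curated transcripts hold 1 start site for Pde4d, a gene known for many alternative promoters, so its distances are from the longest form only. Ano1, a chloride channel gene, had 4 regions between introns 15 and 22, all assigned to Fadd. Cdh16, a kidney and thyroid cadherin gene, had 2 within 50 kb, downstream and assigned to Pdp2. Sod3, the extracellular superoxide dismutase gene, and Cdh13, another cadherin gene, had none within 50 kb or in the gene. Over the 3 gene groups, 95 regions were nearest to, inside or within 5 kb of a gene. Of these, 49 held an NKX string, 6 a PAX string, 4 both and 44 neither. Over all shared regions 55% held an NKX string, 7.2% a PAX string, 3.72% both and 41.5% neither, so the gene groups were near these shares.

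**Figure D3:**
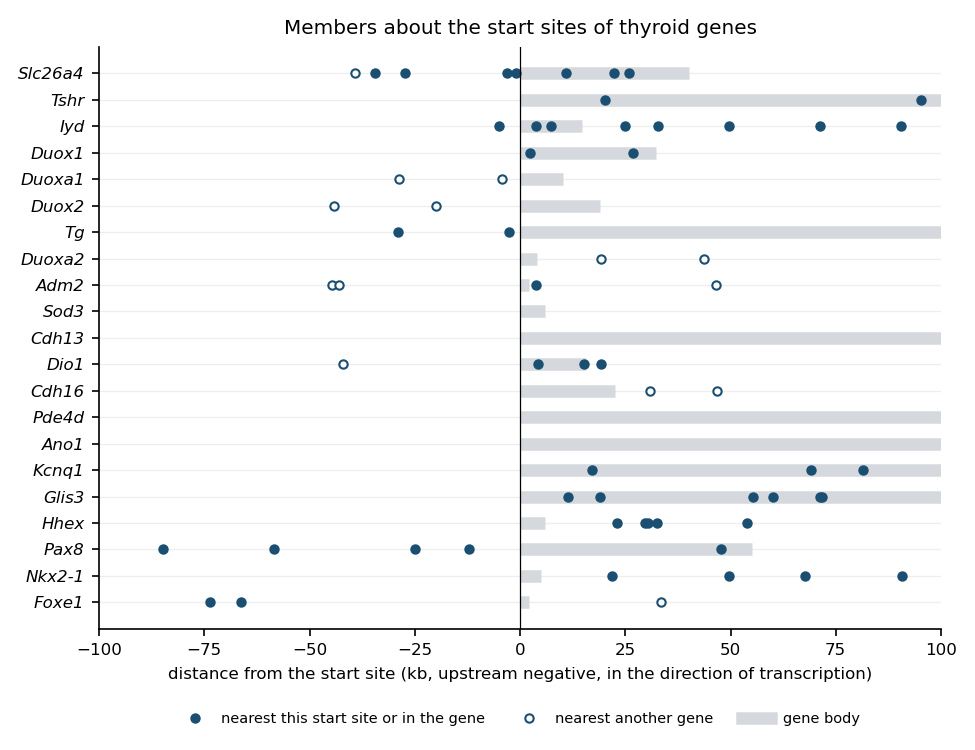
Shared regions (points) within 100 kb of the start sites of 21 TH synthesis, TSH-induced and thyroid TF genes, with distance in kb along the direction of transcription on the x axis and gene bodies as grey bars. Filled points are nearest to that gene or inside it and open points are nearest to another gene. Filled points of Slc26a4 lie within 35 kb upstream and inside the gene. Those of Iyd spread from upstream to far downstream of its start site, and those of Hhex lie downstream. In this window 4 genes (Sod3, Cdh13, Pde4d and Ano1) show no point.

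Other gene groups were counted in the same way, by the nearest start site, beside 36.9% of all genes. Thyroglobulin uptake and proteolysis had 7 of 10 genes, including Lamp2 with 4 regions and the cathepsin gene Ctsb, the protease gene Lgmn and the endocytic receptor gene Lrp2 with 3 each. The TSH receptor and cAMP pathway had 10 of 16, with Gnaq at 8 and Adcy9 and Prkar2b at 5. TH conversion, transport and receptors had 8 of 13, where the TH receptor gene Thrb came first with 10 regions, 5 of them in the gene. The IGF and mTORC1 pathway had 9 of 14, led by Rptor with 12 and the receptor and adaptor genes Igf1r and Irs2 with 11 each. Genes of Rap and Ras GTPase-activating proteins had 8 of 13, with Sipa1l1 at 14, Dab2ip at 10 and Sipa1l2 at 8. Hippo and TEAD genes had 7 of 14, with Tead1 at 7, and cAMP-responsive immediate early genes had 6 of 11, with Jun at 10. Extracellular matrix genes had 11 of 21, led by Col12a1 with 9. The thyroid function group of the study had 8 of 11, again with Gnaq at 8. Chaperone genes of the endoplasmic reticulum had 4 of 12 and housekeeping genes 4 of 12. The wider count, of any region within 50 kb or in the gene, moved both of these lists above the share of all genes (54.2%), with 10 of 12 and 8 of 12, and placed the extracellular matrix genes just below it with 11 of 21. The median number of regions per gene was 0 to 1 in these groups, except 2 for thyroglobulin uptake and proteolysis and 3 for the GTPase-activating proteins, and their median stretches ran from 23.6 kb for the chaperone genes to 172 kb for the GTPase-activating proteins.

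Marker genes of other cells of the gland were also next to shared regions in part, counted by the nearest start site beside 36.9% of all genes. Endothelial markers had 10 of 12 genes, with Flt1 at 6, Emcn at 5 and Vwf and Erg at 4, and their stretches were long, with a median of 164 kb. C cell markers had 5 of 11, among them Chga with 9 and Ret with 3, whereas Calca, the calcitonin gene, had 0. Parathyroid markers had 4 of 5, with Gata3 at 5 and Pth at 2, and fibroblast markers had 5 of 12, with Dcn and Fn1 at 6 and Pdgfra at 2. Immune markers had 2 of 13, namely Ptprc with 2 and Adgre1 with 1, and Cd68 had 0 as the nearest gene. Inflammation genes of the study had 1 of 8 (Ccl17), and skeletal muscle markers had 3 of 12 (Myod1 with 3, Myog and Myh1 with 1 each), while Ckm had 0. The C cell (45.5%) and fibroblast (41.7%) shares were near that of all genes, with median stretches of 78.9 and 207 kb. By the wider count the C cell markers (4 of 11) and fibroblast markers (4 of 12) lay below the 54.2% of all genes. The immune and inflammation lists had short stretches, with medians of 28.5 and 34.2 kb. Epithelial adhesion and keratin genes had 9 of 14, kidney tubule genes, another tissue of PAX8, 5 of 8, and lung epithelial genes, another tissue of NKX2.1, 4 of 8. A peak list of a whole gland does not tell which cell type carried a peak, and the part of other cells in these counts was not tested.

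Shared regions lay near each other more often than the peaks of a single TF did. Another shared region was within 12500 bp, the distance commonly used to join enhancers, for 44.9% of them (44.2 to 45.5%). The share was 34.7% (34.1 to 35.4%) for NKX2.1 peaks without PAX8 and 36.6% (36 to 37.3%) for PAX8 peaks without NKX2.1, each counted among its own kind. The sets were not of equal size, with 21289, 19162 and 21878 peaks. Linked in this way the regions formed 15694 runs, of which 11738 were single regions and 108 had 5 or more. The largest run, 11 regions over 70 kb, was in Myo5b, which encodes a motor protein of apical recycling in epithelia (chr18:74489479-74559517). A run of 9 over 58.2 kb lay in Zbtb16 (chr9:48717740-48775928). Runs of 7 lay in Itpr1 beside the circadian TF gene Bhlhe40 (chr6:108507288-108537128), in Mical2 (chr7:112283910-112317766), in Ddc, where Fignl1 had the nearest start site (chr11:11811962-11848843), in Maco1 (chr4:134817808-134855233) and beside Hes1, a target gene of Notch (chr16:30018747-30057172). Runs of 6 lay in Mecom over 15.2 kb (chr3:30468444-30483683), beside Abcd3 (chr3:121847323-121865013) and in Myo1e (chr9:70237646-70260839). Of these 10 runs, 7 held no H3K4me3 region between their ends.

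Strings of both factors were more frequent in the shared regions than in other sequence. An NKX string was present in 55% of shared regions (54.3 to 55.7%), compared with 29.4% of genome windows and 31.9% of 300 bp stretches 1 kb to either side of the same regions. A PAX string was present in 7.2% (6.86 to 7.55%), compared with 2.56% of genome windows and 2.89% of the stretches beside them. Both kinds of string occurred together in 791 regions, 3.72% against 0.712% of the windows, and 8841 regions (41.5%) had neither. The strings are exact and short, so they miss variant sites. The longer word CACTTGAG, which contains a copy of each NKX string, was in 5.64% of regions and 1.09% of windows.

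Compared with peaks of a single TF, the shared regions resembled NKX2.1 peaks in their NKX strings and were poorer in PAX strings than PAX8 peaks. NKX2.1 peaks without PAX8 had an NKX string in 54.1%, a difference of 0.842 points with an interval that included 0 (-0.13 to 1.81). PAX8 peaks without NKX2.1 had a PAX string in 13.7% (13.3 to 14.2%), so the difference of the shared regions from them was -6.53 points (-7.11 to -5.96). Searched about the PAX8 centre instead, the 21266 PAX8 peaks that overlapped an NKX2.1 peak outside H3K4me3 had a PAX string in 7.74%. That value was just above the interval of the shared regions (6.86 to 7.55%), and the part of centring in the difference was not tested. The PAX strings were 4.27 points more frequent in the shared regions than in NKX2.1 peaks without PAX8 (3.85 to 4.7). PAX8 peaks without NKX2.1 held an NKX string in 38.1%, above the genome windows. Median GC content was 47.7% in shared regions, 46.3% in NKX2.1 peaks without PAX8, 47.7% in PAX8 peaks without NKX2.1, 44.7% beside the regions and 41.3% in the windows, and its part in these differences was not tested. Repeats masked in the assembly took up 12% of the shared sequence on average, compared with 24.7% beside it and 34.7% in the windows.

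Around the peak centres the NKX strings of the shared regions formed a narrow maximum. Within 40 bp of the centre there were 9.72 NKX strings per 100 regions in each 20 bp, 3.6 times the 2.7 found 300 to 500 bp away. PAX strings numbered 0.755 per 100 regions in the same central bins and 0.197 farther out, a ratio of 3.83. In PAX8 peaks without NKX2.1 the corresponding PAX values were 2.45 and 0.188, a ratio of 13.1. Those peaks were centred on the PAX8 peak, whereas the shared regions were centred on the NKX2.1 peak. The part of this unlike centring in the 2 ratios was not tested. In the 1479 regions with exactly 1 PAX string, it was a median of 34.5 bp from the PAX8 centre and 51.5 bp from the NKX2.1 centre. The single NKX string of 7328 regions was a median of 45 bp from the NKX2.1 centre and 56 bp from the PAX8 centre. Strings were searched only in the 300 bp about the NKX2.1 centre, which by itself favours short distances to that centre. There were 500 regions with exactly 1 of each, and in 495 of these the centres differed. The PAX8 centre was displaced towards the PAX string in 302 of the 495, or 61% (56.6 to 65.2%). These pairs of strings were a median of 68.5 bp apart, and 68 pairs (13.6%) were within 20 bp.

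**Figure D4:**
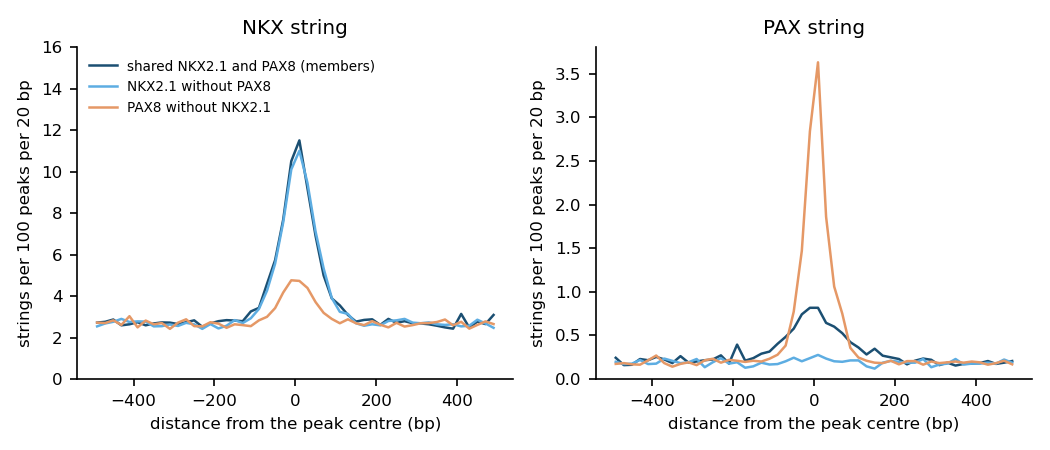
Number of NKX strings (left) and PAX strings (right) per 100 peaks in bins of 20 bp (y axes) by distance from the peak centre in bp (x axes) for shared peaks, NKX2.1 peaks without PAX8 and PAX8 peaks without NKX2.1 outside H3K4me3. The shared peaks reached 11.5 NKX strings per 100 at the centre, close to the 11 of NKX2.1 peaks without PAX8. They reached 0.817 PAX strings per 100, against 3.63 in PAX8 peaks without NKX2.1. The centre is that of the NKX2.1 peak for shared peaks and of the PAX8 peak for PAX8 peaks without NKX2.1.

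An unguided count of 8-letter words gave words that resembled the NKX strings. Several leading words, such as GCACTCAA and CCACTCAA, held neither NKX string in full. No leading word held a PAX string, but the count could hardly have given one. It took the central 100 bp about the NKX2.1 centre and words found in at least 200 regions. In that stretch 717 regions (3.37%) held any PAX string, so a word with one had little room to reach the limit. Among words found in the central 100 bp of at least 200 regions, CACTCAAG had the highest ratio to the stretches 1 kb away, with 888 regions (4.17%) against 0.392%, and CACTTGAG came close with 803 (3.77%) against 0.402%. Each of the 15 leading words was more frequent in NKX2.1 peaks without PAX8 than in PAX8 peaks without NKX2.1, for example 4.61 and 0.736% for CACTCAAG. Of the strings of other TF families, TGANTCA, the AP-1 element, was in 13.8% of shared regions, compared with 8.92% of windows and 9.12% of the stretches beside them. Without copies that overlapped an NKX string the share was 13% (12.6 to 13.5%) against 8.56% of windows. The TEAD string GGAATG was in 18.1% against 15.8% of windows, the forkhead string TGTTTAC in 5.25% against 4.44%, and the RUNX string TGTGGTT in 6.71% against 6.96%, a difference whose interval included 0 (-0.617 to 0.126). NKX2.1 peaks without PAX8 had the AP-1 element in 14.4%, the TEAD string in 18.7% and the forkhead string in 5.28%. The differences of the shared regions from these peaks had intervals that included 0, so the 3 strings were not particular to shared regions. PAX8 peaks without NKX2.1 had them in 11.5, 17.1 and 4.67%. The GLIS string TGGGGGGT was in 0.752% of the shared regions and 0.905% of the windows, a difference whose interval left out 0 (-0.277 to -0.0161). The study's de novo motif search reported GLIS motifs in its NKX2.1 and PAX8 peaks. That search and 1 exact string, which misses variant sites, are unlike measures, so the share of the string does not bear on the study's result. The GC-rich SP string GGGGCGG and the ETS string CCGGAAG, both typical of promoters, were in 1.63 and 1.37% of the shared regions outside promoters, but in 16.5 and 8.48% of the shared peaks at promoters.

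Few shared regions lay in H3K27me3. The Glis3KO-LID list overlapped 184 of 21289 regions, 0.864% (0.749 to 0.998%), while 2.16% of the genome windows overlapped it. The other libraries overlapped 9 regions in WT-LID (0.0423%, windows 0.219%), 23 in Glis3KO-ND (0.108%, windows 0.420%) and 18 in WT-ND (0.0846%, windows 0.216%). In each of the 4 libraries the share was below that of the windows and below that of NKX2.1 peaks without PAX8, of PAX8 peaks without NKX2.1 and of shared peaks at promoters, with intervals of the differences that left out 0. In Glis3KO-LID the difference of the shared regions was -0.602 points from NKX2.1 peaks without PAX8 (-0.816 to -0.393) and -1.8 points from PAX8 peaks without NKX2.1 (-2.05 to -1.56). The Glis3KO lists also covered more of the genome on the LID, whereas the WT lists were of nearly equal length, with 55.11 Mb in Glis3KO-LID, 7.502 Mb in WT-LID, 13.26 Mb in Glis3KO-ND and 7.472 Mb in WT-ND. The part of that length, and of the unknown read depth, in the higher Glis3KO-LID count was not tested. The regions outside promoters had been chosen for lacking H3K4me3, so they describe places without either mark in 21096 cases.

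Of the 184 regions, 157 were in H3K27me3 of Glis3KO-LID only. The 184 were nearest to 162 genes and lay a median of 24.5 kb from a start site, compared with 37.1 kb for the others. The genes with 3 such regions were Foxc1 and Irx3, which encode developmental TFs, Tle3, a corepressor gene, and Mgat5b, a glycosyltransferase gene. The 4 regions marked in all 4 libraries were nearest to Six2, Pou3f1 and Irx5, also genes of developmental TFs, and to Rasl10b. These 8 genes were picked after their values were seen.

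**Figure D5:**
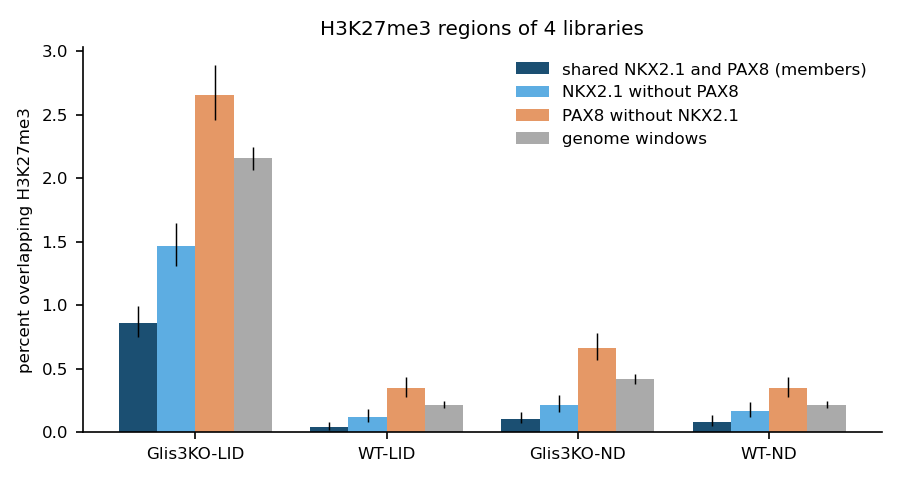
Percent of peaks or windows that overlapped an H3K27me3 region (y axis) in each of 4 libraries (x axis), for shared NKX2.1 and PAX8 peaks, peaks of NKX2.1 without PAX8, peaks of PAX8 without NKX2.1 and genome windows outside H3K4me3, with Wilson 95% intervals of counting as bars. The shared peaks were the lowest in each library, with 0.864% in Glis3KO-LID and 0.0423% in WT-LID.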

How the data were processed

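NKX2.1 and PAX8 ChIP-seq of mouse thyroid and the H3K4me3 and H3K27me3 lists of the same series were used, with 1 library per factor or mark in each group. According to the study's methods the authors called peaks with HOMER 4.10.3 against input, after trimming of reads (cutadapt 1.12), mapping of unique hits to mm10 (Bowtie 1.2) and removal of duplicate reads (Picard 1.110). The submitters' processing notes also name bedtools 2.24.0. Factor peaks were set to a common width. The deposited files give genome positions (chromosome, start, end) without a score or read number, so weak and strong peaks count alike, no stricter threshold could be tried and the depth is unknown.

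Peaks were placed by midpoint against 45302 curated RefSeq transcripts on GRCm38, in the order TSS proximal, gene body, upstream and intergenic, and assigned to the nearest protein-coding start site. The stretch of a gene runs between the midpoints to the neighbouring start sites. Genome windows of 300 bp every 25 kb, outside H3K4me3, served as background (100757 windows). Neither these windows nor the stretches 1 kb beside the regions were freed of other peaks. Strings were searched on both strands in 300 bp about each midpoint. Shares have Wilson and differences Newcombe 95% intervals. Overlap and string functions were tested on simulated data. Python 3.11.15 and numpy 2.4.6 were used. The regions and gene lists were chosen with earlier results of these data known. Named were the 15 genes with the most regions (ties by density), the genes of the TH synthesis, TSH-induced and thyroid TF groups, up to 4 genes per other list, the 10 largest runs and the 5 peaks on either side of the overlap limit. The alternatives were a larger overlap, other promoter exclusions, PAX8 peaks in place of NKX2.1 peaks, other start sites and gene assignments, other linking distances and other strings. The rat libraries were not used here, and a few genes and regions that the rule names are not reported here.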

Additional observations from a re-analysis of the deposited data

Results flagged for a closer look

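The difference between diets in the number of shared regions in H3K27me3 had opposite signs in the 2 genotypes, but the WT counts were small. In Glis3KO thyroids 184 regions overlapped H3K27me3 on the LID and 23 on the ND, a difference of 161. In WT thyroids 9 overlapped it on the LID and 18 on the ND, a difference of -9. The counting intervals of these 2 WT shares overlapped (0.0222 to 0.0803% and 0.0535 to 0.134%). Genome windows outside H3K4me3 moved in the same way in Glis3KO thyroids, with 2.16% on the LID and 0.420% on the ND, and the lists covered 55.11 Mb on the LID and 13.26 Mb on the ND. In WT thyroids the windows gave 0.219% on the LID and 0.216% on the ND, with lists of 7.502 and 7.472 Mb. Each value comes from 1 library and the difference was not tested.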

How the results depend on the processing

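Of 52 alternative values, 36 kept within the counting interval of the reported value or within 1.5 times the reported count, and 16 moved. With GENCODE M21 start sites, an alternative chosen after seeing the data, 7.38% of regions were within 1 kb of a start site and the median distance was 29.6 kb. With start sites of all annotated genes the median was 29.9 kb. Leaving out peaks within 1 kb of H3K4me3 gave 1.44% within 1 kb of a start site, a median distance of 38.7 kb and 43.3% with a neighbour within 12500 bp. An overlap of at least 150 bp gave 43.1% with a neighbour. Linking distances of 5 and 25 kb gave 21.1 and 64.4%. Counting start sites within 50 kb only, 326 genes had at least 5 regions. Using the PAX8 peaks of the pairs gave 53.7% with an NKX string and 7.74% with a PAX string. The central 100 bp gave 33.9 and 3.37%, CACTTGAG alone 5.64% and GTCATGC alone 5.56%, as fewer bases or strings were searched. The causes of the other shifts were not tested.

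No paired analysis was possible because each group had 1 library. For the same reason no replicate was left out, and variation between animals is not covered by any interval. Peak lists without scores or read numbers do not allow a stricter peak threshold or a statement on depth.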

Other observations

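The density of shared regions differed between chromosomes. Over all chromosomes there were 7.81 regions per Mb. Chromosome 11 had 1399 regions, or 11.5 per Mb, and chromosome 19 had 10.7 per Mb. Chromosome X had 315 regions, or 1.84 per Mb. Chromosome X was also low in NKX2.1 peaks as a whole, with 796, of which 39.6% were shared regions outside promoters. On the autosomes this share ran between 42.8% on chromosome 17 and 49.4% on chromosome 18.

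The 791 regions with a string of each factor lay a median of 38.6 kb from a start site and 61.4% of them were in gene bodies, compared with 36 kb and 58.9% for the 8841 regions with neither. The median distance between the NKX2.1 and PAX8 centres was 33 bp in regions with both strings and 36 bp in regions with neither. These differences were not tested.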
